A study of Mus musculus with 12 samples.

Results

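Genes that mark macrophages in the heart were followed through the left ventricle of mice with and without pressure overload. They are 10 of the 18079 genes of the deposited table, found by matching the NCBI Gene identifiers of the table to the symbols Cd68, Csf1r, Adgre1, Timd4, Lyve1, Cd163, Mrc1, Ccr2, Lgals3 and Spp1. All 10 were among the 11664 genes that passed the filter on low values, an FPKM (reads scaled by transcript length and library size) that reached 1 in 3 or more of the 12 libraries, although Spp1 passed through only 1 mouse each of the DMSO+Sham, DMSO+AB and Hispidulin+AB groups.

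RNA was sequenced from left ventricular muscle as bulk tissue, 1 library for each of 12 male mice of the C57BL/6 strain (C57BL/6J in the study's methods), 3 in each of 4 groups. Mice of the DMSO+Sham and DMSO+AB groups received the vehicle, and those of the Hispidulin+Sham and Hispidulin+AB groups received the flavone hispidulin at 20 mg/kg/day by intraperitoneal injection, from the day ahead of the operation onwards. The AB groups underwent banding of the descending aorta, which makes the left ventricle pump against a raised pressure, and the Sham groups underwent the operation without the band. Mice were 8 weeks old at surgery and 12 weeks old when the hearts were taken, 4 weeks later. No group carried a genetic change. The labels give no pooling of animals.

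Macrophages are phagocytes that clear dead cells and debris and release growth factors and cytokines. The healthy myocardium holds a resident population that is seeded before birth and largely renews itself, and after injury or overload a further population arises from blood monocytes that enter along gradients of chemokines. Resident cells are commonly recognised by Timd4, Lyve1, Cd163 and Mrc1, monocyte-derived cells by Ccr2, and activated or lipid-laden cells of scarring tissue by Lgals3 and Spp1.

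Macrophage markers were read at lower levels than cardiomyocyte markers. A wider list of 16 genes of macrophages as a whole summed to between 311 and 780 FPKM per mouse. Sums of chosen markers do not measure a share of the tissue. FPKM carry no depth, and values are given without a counting error. The summed FPKM of the 7 cardiomyocyte markers lay between 34381 and 44024 per mouse, while 5 markers of T cells that the table holds summed to between 0.42 and 1.33 and the 4 of B cells to between 0.52 and 1.55. One control heart stood apart. DMSO+Sham mouse 3 had the highest level of the 12 mice for 24 of the 49 tested genes of the wider macrophage lists (49.0%), against 22.1% of all tested genes, and its neutrophil markers summed to 65.56 FPKM against 9.99 and 14.02 in the other 2 control hearts. In that mouse Itgam, the integrin chain of myeloid cells, stood at 18.22 FPKM, and in the other 11 mice it lay between 1.26 and 3.41. Among the banded hearts, DMSO+AB mouse 2 had the highest values of Lgals3 and Spp1 of all 12 mice and shared the highest value of Ccr2 with Hispidulin+AB mouse 3. Values without these libraries are given beside the results that they moved most.

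The markers differed widely in abundance. On the FPKM scale, which is per transcript length, the mean level over the 12 mice was 15.4 ± 4.39 (SD, n = 12) for Lyve1 and 13.5 ± 2.01 for Csf1r, a difference within their spread. Cd68 (6.90 ± 1.36), Cd163 (6.65 ± 1.89) and Mrc1 (6.00 ± 1.39) formed a middle group, and Adgre1 (4.47 ± 2.27) and Lgals3 (4.31 ± 2.40) came below it, again with overlapping spreads. Spp1 (1.21 ± 2.15), Ccr2 (1.08 ± 0.691) and Timd4 (0.890 ± 0.753) were close to or under 1 FPKM in most hearts. Csf1r was the steadiest marker, with a highest value 1.61 times its lowest, whereas Spp1 spanned from 0.05 to 7.93 FPKM. The 3 rarest transcripts are therefore read from very low levels.

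**Figure D1:**
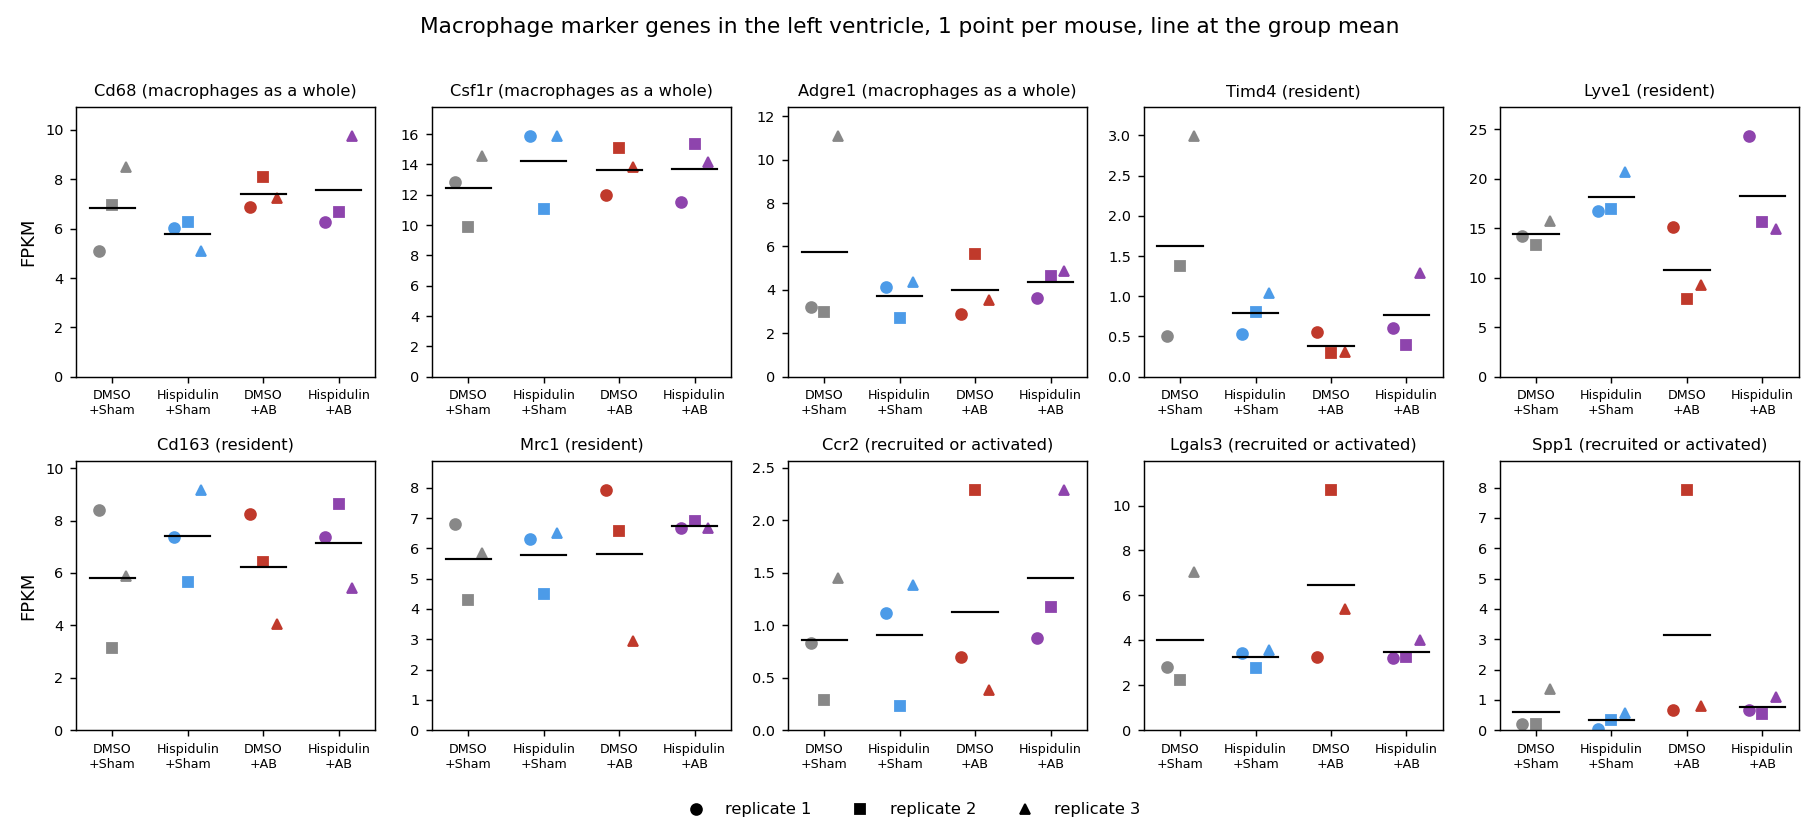
FPKM (vertical axis) of the 10 macrophage markers in each of the 12 mice, with the 4 groups on the horizontal axis, a marker shape for each replicate number and a line at the group mean. Lgals3 and Spp1 are highest in DMSO+AB mouse 2 (10.71 and 7.93 FPKM), and Adgre1 and Timd4 are highest in DMSO+Sham mouse 3 (11.08 and 2.99 FPKM).

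The first question was whether banding altered macrophage markers in vehicle-treated hearts. It was not detectable for any member: 0 of the 10 had an adjusted p under 0.05 in limma (1 had an unadjusted p under 0.05), against 5.21% of all genes tested and 20.4% of them at an unadjusted p under 0.05. Without DMSO+Sham mouse 3, 2 had an unadjusted p under 0.05 (Lgals3 and Spp1) and 0 passed, where 494 of the 11664 genes passed in either direction. The share of all genes at an unadjusted p under 0.05 in that fit is not given here. For none of the 10 did the DMSO+AB and DMSO+Sham values separate without overlap, which 17.9% of all genes did. The largest differences were a lower Timd4 and higher Spp1 and Lgals3 levels. In bulk tissue fewer cells of a type and less RNA per cell cannot be told apart.

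The markers of macrophages as a whole came first. Cd68, a glycoprotein of lysosomes and endosomes, stood at 5.08, 6.96 and 8.48 FPKM in DMSO+Sham mice 1, 2 and 3 and at 6.88, 8.09 and 7.24 in DMSO+AB mice. All 3 banded hearts lay inside the control range, and the difference was 0.12 on the log2(FPKM + 1) scale (SE 0.18, adjusted p = 0.743). Csf1r, the receptor for the survival factors CSF1 and IL-34, read 12.86, 9.86 and 14.55 FPKM in controls and 12.00, 15.10 and 13.83 after banding. Its values interleaved, with a difference of 0.14 (SE 0.17, adjusted p = 0.700) and a 95% confidence interval from -0.24 to 0.51. Adgre1, which encodes the F4/80 surface antigen, was at 3.19, 2.97 and 11.08 FPKM in controls and at 2.88, 5.65 and 3.52 after banding. A single control heart held the high value, and the fitted difference of -0.26 (SE 0.36) became 0.26 when DMSO+Sham mouse 3 was left out.

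Among the resident markers Timd4 showed the largest difference. It encodes TIM-4, a receptor for phosphatidylserine on dying cells. Timd4 read 0.50, 1.37 and 2.99 FPKM in DMSO+Sham mice and 0.55, 0.30 and 0.31 in DMSO+AB mice. Of the controls 2 lay above every banded heart, and the lowest control fell inside the banded range. The difference was -0.81 on the log2(FPKM + 1) scale (SE 0.30, unadjusted p = 0.0186, adjusted p = 0.147 in limma), and the exact two-sided permutation test gave p = 0.2, where 3 mice against 3 cannot give less than 0.1. Without DMSO+Sham mouse 3 it was -0.45 with an adjusted p of 0.341. With 0.1 added in place of 1 before the logarithm the difference was larger, and over all alternatives it ran from -1.56 to -0.34. Between mice of the same series of animal numbers it was -0.86 in the series X52 (1 mouse against 1) and -1.49 in the series X67 (2 against 1). The X52 control was DMSO+Sham mouse 2, and the X67 control was DMSO+Sham mouse 3. DMSO+Sham mouse 1, the lowest control, belongs to neither series and is absent from both values.

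Lyve1, the hyaluronan receptor that tethers resident macrophages to the matrix around vessels, read 14.19, 13.30 and 15.72 FPKM in controls and 15.10, 7.87 and 9.22 after banding. DMSO+AB mice 2 and 3 lay below all controls and mouse 1 among them. The difference was -0.44 (SE 0.22, adjusted p = 0.287), and it passed the threshold only when DMSO+AB mouse 1 was left out (-0.69, adjusted p = 0.0494). Without DMSO+AB mouse 2 it was -0.26 (adjusted p = 0.581 in limma). Lyve1 also marks lymphatic endothelium. The 6 lymphatic markers summed to between 52.41 and 58.88 FPKM in controls and to between 32.92 and 51.31 after banding, and these ranges did not touch. Most of that sum was Ccl21a, whose own values overlapped. It read 31.9, 33.77 and 35.67 FPKM in controls and 17.69, 33.71 and 28.47 after banding. Among the 5 tested markers the groups separated without overlap for 1, the Prox1 described below. The gap between the sums therefore says little of the rest of the list, and the sum without Prox1 is not given here. The part of the lymphatic markers in the Lyve1 values was not tested. Of the 5 that were tested, 1 passed as lower (2.71% of all genes did), and it is named here after its values were seen: Prox1, the transcription factor of lymphatic identity that cardiomyocytes also express, fell by 0.90 on the log2 scale (SE 0.12, adjusted p = 0.00434), a call lost with only the libraries compared (adjusted p = 0.0781). The list did not run one way, with 3 of the 5 below 0 and 2 above it, Pdpn at 0.34 (SE 0.22) and Flt4 at 0.13 (SE 0.12), named likewise.

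The scavenger receptors differed by less than their errors. Cd163, which takes up haemoglobin bound to haptoglobin, read 8.41, 3.12 and 5.88 FPKM in controls and 8.24, 6.42 and 4.06 after banding. Mrc1, the mannose receptor CD206, read 6.80, 4.29 and 5.86 FPKM in controls and 7.94, 6.56 and 2.96 after banding. Both pairs of groups overlapped widely, with differences of 0.13 (SE 0.30) and -0.03 (SE 0.26). The sign of each turned when single mice were left out. Cd163 and Mrc1 ran together over the 12 mice (Pearson r = 0.79, and 0.80 over the 10 mice without the 2 libraries named above), as a description of values that come from the same libraries.

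The recruited and activated markers leaned upwards through 1 heart. Spp1, the secreted matrix protein osteopontin, which fibroblasts and smooth muscle can also make, read 0.22, 0.22 and 1.37 FPKM in controls and 0.67, 7.93 and 0.79 after banding. DMSO+AB mouse 2 held most of the group total, and the other 2 banded hearts lay below the highest control. The difference was 0.97 (SE 0.52, adjusted p = 0.317). It was 0.18 without that mouse and 1.29 without DMSO+Sham mouse 3 (adjusted p = 0.218). Under library weights, which are estimated from the spread of all genes, Spp1 passed the threshold (1.69, adjusted p = 0.0392). DMSO+AB mouse 2 then had the highest weight of its group (1.09, against 0.579 and 0.344 for mice 1 and 3), and DMSO+Sham mice 1, 2 and 3 weighed 2.76, 0.434 and 0.328.

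Lgals3, galectin-3, a lectin of activated macrophages, read 2.81, 2.22 and 7.04 FPKM in controls and 3.26, 10.71 and 5.39 after banding. Here 1 control heart lay above 2 of the banded ones. The difference was 0.56 (SE 0.36, adjusted p = 0.410), 0.18 without DMSO+AB mouse 2 and 0.96 without DMSO+Sham mouse 3. Ccr2, the receptor that draws monocytes towards CCL2, read 0.83, 0.29 and 1.45 FPKM in controls and 0.70, 2.29 and 0.38 after banding. Its groups overlapped throughout, with a difference of 0.14 (SE 0.36, adjusted p = 0.864) that became -0.23 without DMSO+AB mouse 2. The same heart was also the highest of the 12 for the summed fibroblast markers (896 FPKM) and for periostin (Postn, 183.62 FPKM), and it held more of the atrial transcripts Myl7, Sln and Myl4 (67.54, 28.62 and 75.8 FPKM) than DMSO+AB mice 1 and 3 (at most 0.56, 0.16 and 4.07). The atrial transcripts were higher still in Hispidulin+Sham mouse 3 (333.05, 115.52 and 325.33 FPKM), where Spp1 was at 0.58 and Lgals3 at 3.59 FPKM. The part of either set in the Spp1 and Lgals3 values was not tested.

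Spp1 and Lgals3 had the highest Pearson r of the member pairs over the 12 mice (r = 0.89, Spearman rho = 0.78). That order holds only for Pearson r with every mouse in: without the 2 libraries named above r was 0.61, which ranked 8 of 45 pairs, with Adgre1 and Ccr2 first (0.87), and by Spearman Adgre1 and Ccr2 came first (rho = 0.94). Their upstream regions are shown for that reason, beside that of the steady lysosomal marker Cd68. Windows of 7 members were searched in the RefSeq promoter table (GRCm38.p6). Csf1r was left out of the search, and no entry was found for Adgre1 and Lyve1. The 250 bases ahead of the annotated start are printed 5′ to 3′ on the strand of the gene. Capitals mark matches to GAGGAAGT, a core recognised by the myeloid factor PU.1, or to TGANTCA, the AP-1 element, which do not overlap each other here.
Spp1: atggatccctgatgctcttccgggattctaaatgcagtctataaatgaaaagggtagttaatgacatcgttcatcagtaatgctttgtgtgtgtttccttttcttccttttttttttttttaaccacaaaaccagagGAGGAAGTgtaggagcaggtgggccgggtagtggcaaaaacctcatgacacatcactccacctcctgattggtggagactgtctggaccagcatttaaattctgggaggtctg
Lgals3: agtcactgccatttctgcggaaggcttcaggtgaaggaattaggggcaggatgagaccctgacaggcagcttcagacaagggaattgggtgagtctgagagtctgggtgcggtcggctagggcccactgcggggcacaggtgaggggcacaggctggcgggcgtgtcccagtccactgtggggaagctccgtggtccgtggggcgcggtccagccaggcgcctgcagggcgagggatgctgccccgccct
Cd68: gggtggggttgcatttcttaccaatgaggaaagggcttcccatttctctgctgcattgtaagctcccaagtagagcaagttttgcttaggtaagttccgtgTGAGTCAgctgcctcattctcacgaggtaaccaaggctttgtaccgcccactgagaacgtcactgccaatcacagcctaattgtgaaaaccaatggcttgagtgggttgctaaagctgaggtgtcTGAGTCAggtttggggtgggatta
The Spp1 window, the more upstream of 2 in the table for that gene, lies at chr5:104434861-104435110 on the plus strand. It holds 1 GAGGAAGT at positions -113 to -106 from the start. The Cd68 window lies at chr11:69666171-69666420 on the minus strand and holds TGAGTCA at positions -149 to -143 and -24 to -18. The Lgals3 window lies at chr14:47373610-47373859 on the plus strand and holds neither. Searched on both strands, GAGGAAGT occurred in 2.44% and TGANTCA in 6.75% of the 32851 windows of the same length in the table. Which members hold the first motif depends on its length: GAGGAAG, with 1 letter fewer, occurred in 10.6% of windows, and besides Spp1 it was found at 2 places ahead of Mrc1, at positions -168 to -162 and -36 to -30 on the opposite strand. The letters were chosen after matches in these windows had been seen, so a match is a description of the letters and supports nothing about the factor.

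**Figure D2:**
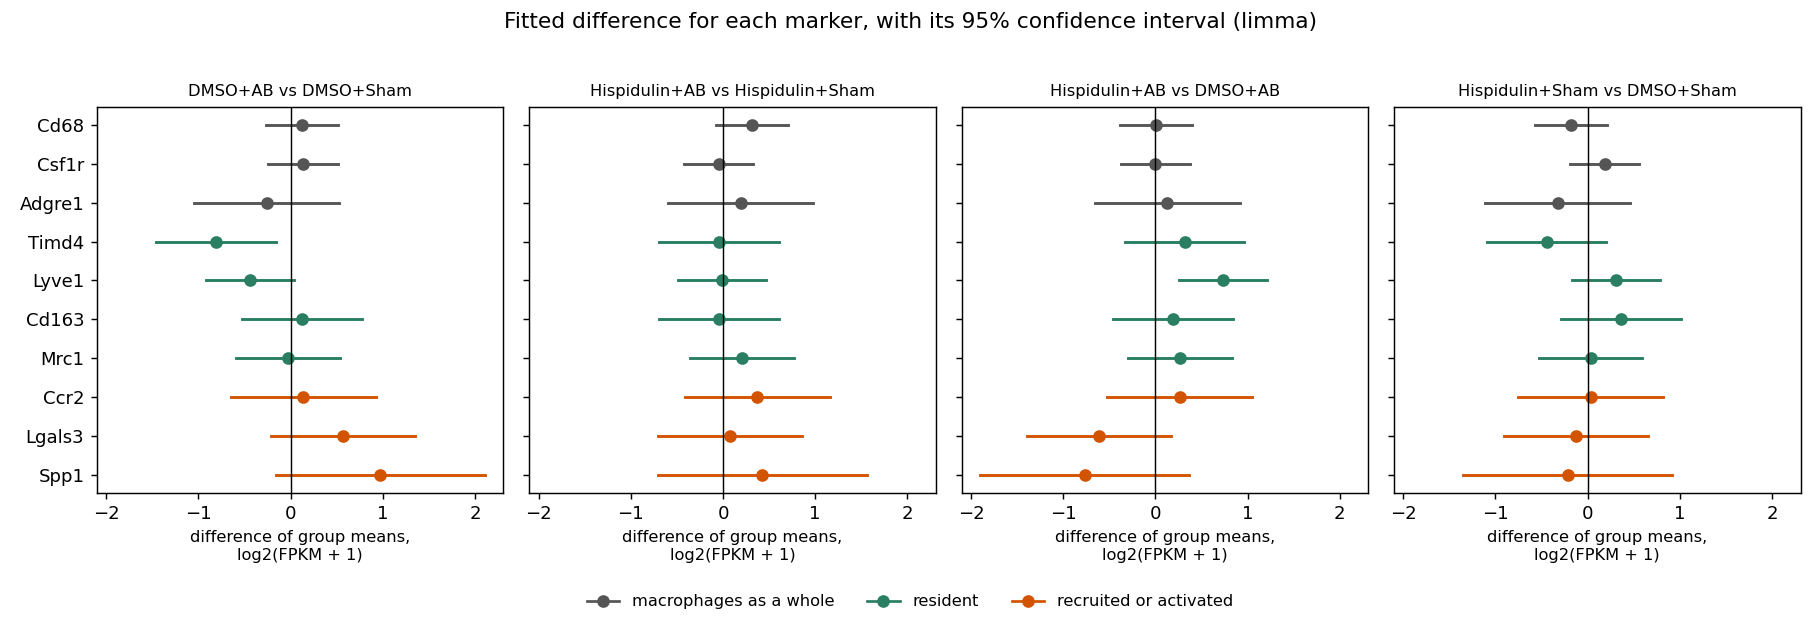
Fitted differences between group means on the log2(FPKM + 1) scale (horizontal axis) for the 10 markers (vertical axis) in 4 comparisons, with points at the estimate and bars for the 95% confidence interval from limma, coloured by marker class. The intervals that leave out 0 are those of Timd4 in DMSO+AB vs DMSO+Sham and of Lyve1 in Hispidulin+AB vs DMSO+AB, and neither passed the adjusted threshold.

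In hispidulin-treated hearts banding was compared in the same way, and 0 of the 10 markers passed in limma, with 0 at an unadjusted p under 0.05. No gene of the whole table passed (0.0%), and 7.26% had an unadjusted p under 0.05. A block for the replicate number raised this to 17 genes, of which 0 were members. For 2 of the 10 the groups did not overlap, both with higher values after banding, against 20.9% of all genes and 9.14% in that direction. Cd68 read 6.02, 6.28 and 5.11 FPKM in Hispidulin+Sham mice and 6.29, 6.67 and 9.75 in Hispidulin+AB mice. The lowest banded heart and the highest control lay 0.01 FPKM apart, the step to which the values are rounded, and the difference was 0.31 (SE 0.18, adjusted p = 0.777). Mrc1 read 6.32, 4.48 and 6.52 FPKM without and 6.68, 6.91 and 6.67 with the band, a difference of 0.21 (SE 0.26, adjusted p = 0.930) in which the Hispidulin+AB hearts were nearly equal to each other.

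The markers that leaned most in vehicle-treated hearts were closer to level here. Timd4 read 0.53, 0.80 and 1.04 FPKM in Hispidulin+Sham mice and 0.61, 0.39 and 1.29 in Hispidulin+AB mice. The groups interleaved, with a difference of -0.04 (SE 0.30). Spp1 read 0.05, 0.35 and 0.58 FPKM without and 0.67, 0.54 and 1.11 with the band, and Lgals3 3.42, 2.75 and 3.59 without and 3.22, 3.24 and 4.02 with it. Their differences were 0.43 (SE 0.52) and 0.08 (SE 0.36), and both genes overlapped between groups. Whether the banding effect itself differed with the drug was tested as an interaction, for which 0 of the 10 markers passed, as did 0.0% of all genes (0 members and 2.48% of all genes at an unadjusted p under 0.05). The largest interaction term with every mouse in was that of Timd4, 0.76 with a 95% interval from -0.15 to 1.68 (SE 0.42, adjusted p = 1.0). With single mice left out it ran from 0.40 (without DMSO+Sham mouse 3) to 1.11. The terms of Lgals3 and Spp1 then reached -0.88 and -0.97, so the ranking depended on the mice kept.

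Averaged over both treatments, 0 of the 10 markers passed, against 7.39% of all genes, and 0 reached an unadjusted p under 0.05, against 23.3%. Without DMSO+Sham mouse 3, 3 reached it (Cd68, Lgals3 and Spp1) and 0 passed, where 1123 of the 11664 genes passed in either direction. The share of all genes that reached an unadjusted p under 0.05 in that fit is not given here. Spp1 was higher by 0.70 (SE 0.37, adjusted p = 0.282), and the exact permutation test within each treatment gave p = 0.075. Its difference was 0.30 without DMSO+AB mouse 2 and 0.86 without DMSO+Sham mouse 3 (adjusted p = 0.170), and under library weights it was 1.06 with an adjusted p of 0.0252. Timd4 differed by -0.43 (SE 0.21, adjusted p = 0.249), which was -0.25 without DMSO+Sham mouse 3, Lgals3 by 0.32 (SE 0.25, 0.13 without DMSO+AB mouse 2 and 0.52 without DMSO+Sham mouse 3), Lyve1 by -0.23 (SE 0.16) and Cd68 by 0.22 (SE 0.13). The other 5 lay between -0.03 and 0.25.

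The study turned on whether hispidulin changed the banded heart. Between Hispidulin+AB and DMSO+AB, 0 of the 10 markers passed (1 at an unadjusted p under 0.05), as did 0.0% of all genes, of which 3.1% had an unadjusted p under 0.05. No member separated the groups without overlap, against 7.88% of all genes. Lyve1 differed most in test rank. It read 15.10, 7.87 and 9.22 FPKM in DMSO+AB mice and 24.29, 15.65 and 14.92 in Hispidulin+AB mice. Of the hispidulin-treated hearts 2 lay above every vehicle-treated one, and the third lay just below DMSO+AB mouse 1. The difference was 0.73 (SE 0.22, 95% interval 0.25 to 1.21, unadjusted p = 0.00598, rank 28 of 11664, adjusted p = 0.996), and the exact two-sided permutation test gave p = 0.2. With single mice left out the difference ran from 0.52 (without Hispidulin+AB mouse 1) to 0.99 (without DMSO+AB mouse 1, adjusted p = 0.0771), and it was 0.56 without DMSO+AB mouse 2 (adjusted p = 0.981). Within the series of animal numbers it was 0.64 (X52, 1 mouse against 1) and 0.78 (X67, 2 against 2). Lymphatic markers summed to 32.92 to 51.31 FPKM in DMSO+AB hearts and to 30.1 to 51.79 in Hispidulin+AB hearts, and those ranges overlapped. Most of that sum was Ccl21a (mean 28.5 FPKM), so it says little of the rest of the list. Mmrn1, named after its values were seen, differed by 0.50 (SE 0.23, unadjusted p = 0.0508) and Prox1 by 0.20 (SE 0.12), while the other 3 tested markers lay between -0.09 and -0.03 (median of the 5 -0.03, 0 at an unadjusted p under 0.05). Their part in the Lyve1 values was not tested.

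The other 3 resident markers differed in the same direction by less than their errors could resolve, Timd4 by 0.32 (SE 0.30), Mrc1 by 0.27 (SE 0.26) and Cd163 by 0.19 (SE 0.30). Without DMSO+AB mouse 3 Mrc1 was at -0.085 and Cd163 at -0.042, so the direction of both rested on that heart. Timd4 was at 0.11 without Hispidulin+AB mouse 3. Spp1 was at -0.77 (SE 0.52) and Lgals3 at -0.61 (SE 0.36) in Hispidulin+AB relative to DMSO+AB. Without DMSO+AB mouse 2 those values were 0.02 and -0.22, so the Spp1 difference rested on that heart. Ccr2 read 0.88, 1.17 and 2.29 FPKM in Hispidulin+AB hearts, with a difference of 0.27 (SE 0.36) that was 0.63 without DMSO+AB mouse 2. For Csf1r (11.49, 15.36 and 14.15 FPKM with hispidulin) and Cd68 the differences were -0.00 and 0.01, with 95% intervals from -0.38 to 0.38 and from -0.38 to 0.40. Adgre1 (3.64, 4.63 and 4.85 FPKM) differed by 0.13 (SE 0.36).

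Without banding, 0 of the 10 markers passed between Hispidulin+Sham and DMSO+Sham, as did 0.0% of all genes (0 members and 2.46% of all genes at an unadjusted p under 0.05). Lyve1 was the member whose groups did not overlap, 1 of 10 against 5.6% of all genes (2.77% in its direction, higher with hispidulin). It read 16.77, 16.89 and 20.70 FPKM in Hispidulin+Sham hearts, all above the control maximum of 15.72, and the difference of 0.31 (SE 0.22, adjusted p = 1.0) had an exact permutation p of 0.1, the smallest that 3 against 3 can give. The 5 tested lymphatic markers all lay lower with hispidulin (median -0.22, and -0.0041 without DMSO+Sham mouse 3). The 6 in the table summed to 41.31 to 48.08 FPKM, against 52.41 to 58.88 in DMSO+Sham. The part of these markers in the Lyve1 values was not tested. DMSO+Sham serves in this comparison and in that of banding with vehicle, and DMSO+AB in that and the preceding drug comparison, so the differences are not independent of each other. Cd163 (7.37, 5.66 and 9.18 FPKM with hispidulin) differed by 0.36 (SE 0.30), which was 0.041 without DMSO+Sham mouse 2, Adgre1 (4.15, 2.71 and 4.36) by -0.32 (SE 0.36) and Timd4 by -0.45 (SE 0.30). Without DMSO+Sham mouse 3 the Adgre1 and Timd4 values were 0.20 and -0.08.

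Resident and recruited markers were set side by side in each mouse as the mean log2(FPKM + 1) of Timd4, Lyve1, Cd163 and Mrc1 and of Ccr2, Lgals3 and Spp1. These levels are a description, without a test. Recruited minus resident was -1.65, -1.60 and -1.06 in DMSO+Sham mice, -1.58, -1.67 and -1.56 in Hispidulin+Sham mice, -1.55, 0.47 and -0.69 in DMSO+AB mice and -1.60, -1.42 and -0.996 in Hispidulin+AB mice. The recruited mean exceeded the resident mean in DMSO+AB mouse 2 alone. DMSO+AB mouse 3 also lay above the other groups, through the lowest resident mean of all mice (2.02), whereas DMSO+AB mouse 1 could not be told from the controls. Group means were -1.44 ± 0.33 (SD, n = 3), -1.60 ± 0.06, -0.59 ± 1.02 and -1.34 ± 0.31 in the same order, with the widest spread in the vehicle-treated banded hearts. The DMSO+AB mean was -1.12 without mouse 2, and the DMSO+Sham mean -1.62 without mouse 3. The mean of the pan-macrophage markers Cd68, Csf1r and Adgre1 lay between 2.97 and 3.12 in the 4 groups, and without DMSO+Sham mouse 3 that of the controls was 2.81, the lowest of the 4.

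**Figure D3:**
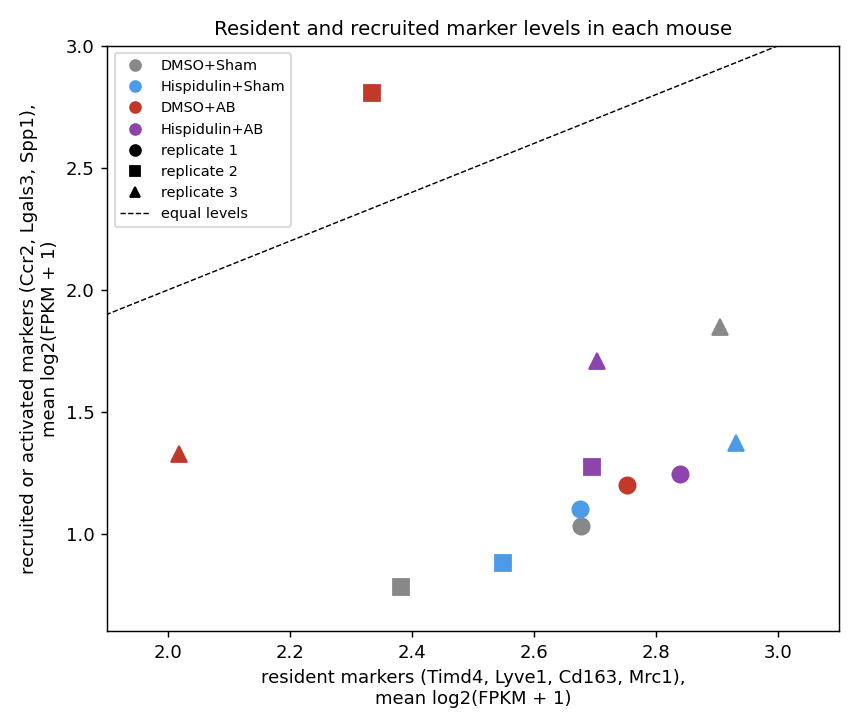
Mean log2(FPKM + 1) of the resident markers (horizontal axis) against that of the recruited or activated markers (vertical axis), 1 point per mouse, with colour for the group, shape for the replicate number and a dashed line where both are equal. DMSO+AB mouse 2 is the one point above the line (2.33 and 2.81), and DMSO+AB mouse 3 has the lowest resident mean (2.02).

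Ratios of single markers were taken within each mouse, also as a description. Lyve1 relative to Csf1r was 1.26, 0.521 and 0.667 in DMSO+AB mice and between 1.02 and 2.11 in the other 9 mice. Timd4 relative to Adgre1 was 0.191, 0.0531 and 0.0881 in DMSO+AB mice. Within that range lay DMSO+Sham mouse 1 (0.157), Hispidulin+Sham mouse 1 (0.128) and Hispidulin+AB mice 1 and 2 (0.168 and 0.0842), and the other 2 DMSO+Sham hearts stood at 0.461 and 0.270. Lgals3 relative to Cd68 was 1.32 in DMSO+AB mouse 2 and at most 0.830 elsewhere. Ccr2 relative to Adgre1 varied from 0.0849 to 0.472 with no order by group.

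Genes whose levels ran closest to the markers were found over all 12 mice by Pearson r of log2(FPKM + 1), among the genes tested. Closest to the mean of Cd68, Csf1r and Adgre1 were Arrb2 (r = 0.95), Tnfrsf1b (0.94), Pld4 (0.94), Mpeg1 (0.93), which encodes the pore-forming perforin-2 of phagocytes, and C1qb (0.92), a chain of complement C1q. These r were 0.80 to 0.90 without the 2 libraries named above. Closest to Spp1 were Ufm1 (0.94), Psma5 (0.92) and Serpinb6a (0.92), whose r was 0.44 to 0.86 without those libraries. Timd4 was matched best by Zfp652 (0.93), Ceacam1 (0.93) and Cxcl9 (0.92), a chemokine that stood at 18.58 FPKM in DMSO+Sham mouse 3 and at most 2.92 elsewhere. Ccr2 was matched by Lyz1 (0.94), Dennd2c (0.92) and Il20rb (0.88).

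Wider lists gave the setting. Of 16 other genes of macrophages as a whole, all tested, 0 passed between DMSO+AB and DMSO+Sham, with a median difference of 0.15 against -0.04 over all genes. That median was 0.44 without DMSO+Sham mouse 3, where 1 gene passed as higher (Cd14, a receptor for bacterial lipopolysaccharide named after its values were seen, 0.80, adjusted p = 0.0481), and -0.03 without DMSO+AB mouse 2, where 0 passed. Of the 11664 genes 494 and 97 passed in those fits, in either direction. Averaged over both treatments 0 of the 16 passed, and without DMSO+Sham mouse 3 2 did, Cd14 (0.68, adjusted p = 0.0112) and Spi1 (0.58, adjusted p = 0.0418), which encodes PU.1 and was named likewise. In that fit 1123 of the 11664 genes passed, in either direction. The most abundant, lysozyme (Lyz2, 131.12, 107.05 and 180.00 FPKM in controls and 124.10, 207.71 and 139.72 after banding) and the complement chain C1qa, differed by 0.17 each between DMSO+AB and DMSO+Sham (SE 0.25 and 0.26). Of 14 other genes of resident macrophages 12 were tested and 0 passed. Averaged over both treatments 1 of them passed as lower, against 3.87% of all genes, Cbr2, a carbonyl reductase, which fell by 0.33 (SE 0.08, adjusted p = 0.0304). Cbr2 read 22.27, 21.66 and 20.20 FPKM in DMSO+Sham hearts and 17.39, 14.17 and 17.66 in DMSO+AB hearts, and its call was lost with the replicate number as a block (-0.33, adjusted p = 0.0511) and without DMSO+Sham mouse 1, Hispidulin+Sham mouse 1 or 2, DMSO+AB mouse 2 or Hispidulin+AB mouse 1 or 3 (-0.34 to -0.29, adjusted p = 0.0652 to 0.0861). Median-of-ratios scaling (-0.31, adjusted p = 0.0605) and the series of animal numbers as a covariate (-0.29, adjusted p = 0.0898) ended it as well. Gas6, the bridge between dying cells and the receptor MerTK and the most abundant of the list, did not pass between DMSO+AB and DMSO+Sham (0.29, SE 0.13, adjusted p = 0.222).

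Of 16 other genes of monocytes and recruited macrophages 10 were tested, and 1 passed as higher between DMSO+AB and DMSO+Sham, against 2.50% of all genes in that direction. The list median was 0.43 (0.57 without DMSO+Sham mouse 3 and 0.29 without DMSO+AB mouse 2), with 7 of the 10 above 0 and 3 below it. Those below were Ly6c2, Itgam and Ms4a6c, named after their values were seen. Each was highest in DMSO+Sham mouse 3 (2.42, 18.22 and 26.83 FPKM). The gene that passed was Vcan, the matrix proteoglycan versican, which monocytes and fibroblasts both make. It read 1.24, 2.81 and 4.01 FPKM in controls and 5.96, 9.06 and 5.53 after banding, so that every banded heart exceeded every control (1.14, SE 0.27, adjusted p = 0.0350). The call was lost without DMSO+Sham mouse 1 (0.82, adjusted p = 0.110), DMSO+AB mouse 2 (0.95, adjusted p = 0.132) or DMSO+AB mouse 3 (1.26, adjusted p = 0.0689). It was lost too with no filter on low values (1.14, adjusted p = 0.0714), with the series of animal numbers as a covariate (0.78, adjusted p = 0.0901) and with only the libraries compared (1.14, adjusted p = 0.183). Averaged over both treatments Vcan (0.92, SE 0.19, adjusted p = 0.0159) and Thbs1, the matrix protein thrombospondin-1 (1.88, SE 0.46, adjusted p = 0.0306), passed as higher, 2 of 10 against 3.52% of all genes, and the Thbs1 call was lost without the same mice as that of Cbr2 (1.67 to 1.93, adjusted p = 0.0627 to 0.0825), with no filter (1.89, adjusted p = 0.0628) and with the series covariate (1.64, adjusted p = 0.102). The abundant members Fabp5, a fatty acid binding protein (0.76, SE 0.23, adjusted p = 0.0763), and the tetraspanin Cd9 (0.44, SE 0.21, adjusted p = 0.260) did not pass in DMSO+AB. Trem2, a lipid receptor named here after its values were seen, read 1.31, 1.08 and 0.89 FPKM in controls and 1.41, 4.88 and 3.46 after banding, and it did not pass (0.93, SE 0.26, adjusted p = 0.0592). It was 0.65 without DMSO+AB mouse 2 (adjusted p = 0.191) and 0.86 without DMSO+Sham mouse 3 (adjusted p = 0.119), and it passed without DMSO+AB mouse 1 (1.29, adjusted p = 0.00167) and under library weights (0.96, adjusted p = 0.0309).

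Of 17 growth factors and chemokines that act on macrophages 11 were tested, and 2 passed as higher between DMSO+AB and DMSO+Sham, against 2.5% of all genes in that direction. Tgfb1, which encodes the cytokine TGF-β1, read 18.75, 22.06 and 18.42 FPKM in controls and 25.31, 32.52 and 33.18 after banding (0.59, SE 0.13, adjusted p = 0.0268). Il34, the second ligand of the Csf1r receptor, read 4.08, 3.52 and 2.31 FPKM in controls and 5.65, 5.10 and 6.00 after banding (0.63, SE 0.15, adjusted p = 0.0332). Neither gene overlapped between the groups. Both calls were lost without DMSO+Sham mouse 3 (0.54 and 0.46), DMSO+AB mouse 2 (0.54 and 0.69) or DMSO+AB mouse 3 (0.52 and 0.59), and that of Tgfb1 also without DMSO+Sham mouse 1 (0.56), with adjusted p between 0.0606 and 0.104. With only the libraries compared both were lost again (adjusted p = 0.176 and 0.218). The Tgfb1 call was further lost with the series covariate (0.57, adjusted p = 0.0886), and that of Il34 with no filter (0.63, adjusted p = 0.0635) and under library weights (0.41, adjusted p = 0.0689). Without DMSO+Sham mouse 3, 1 gene of the list passed, Csf1, the other ligand of Csf1r, named after its values were seen (0.61, adjusted p = 0.0401). That fit passed 494 of the 11664 genes, in either direction. Averaged over both treatments Tgfb1 was the 1 gene of the list that passed (0.50, SE 0.09, adjusted p = 0.00984), and that call held under each of the 18 alternatives (0.45 to 0.56, highest adjusted p = 0.0321). Without DMSO+Sham mouse 3, 3 genes of the list passed in that average, Tgfb1, Csf1 (0.43, adjusted p = 0.0189) and the chemokine Ccl12 (1.25, adjusted p = 0.0446), named likewise. There 1123 of the 11664 genes passed, in either direction. Between DMSO+AB and DMSO+Sham the abundant chemokines Cxcl12 and Ccl6 differed by 0.05 (SE 0.21) and -0.08 (SE 0.29). Cxcl12 read 48.01, 57.82 and 29.31 FPKM in controls and 43.30, 42.09 and 49.73 after banding, with its lowest value in DMSO+Sham mouse 3. Between Hispidulin+AB and DMSO+AB, 0 genes of the 4 wider lists passed in limma, and 2 of 49 had an unadjusted p under 0.05 (4.08%, near the 3.1% of all genes), Tgfb1 at -0.32 (SE 0.13) and the chemokine Cx3cl1, named after its values were seen, at -0.47 (SE 0.18). Fibroblast markers moved beside these genes: 2 of 7 passed as higher between DMSO+AB and DMSO+Sham, against 2.5% of all genes in that direction. Without DMSO+Sham mouse 3 it was 1, and without DMSO+AB mouse 2 it was 0, where 494 and 97 of the 11664 genes passed in either direction. Their median was 1.05 (0.64 and 0.80 without those mice). Their summed levels were 327.64 to 416.85 FPKM in controls and 376.96 to 896.05 after banding. Their part in the Vcan, Tgfb1, Il34 and Thbs1 values was not tested.

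**Figure D4:**
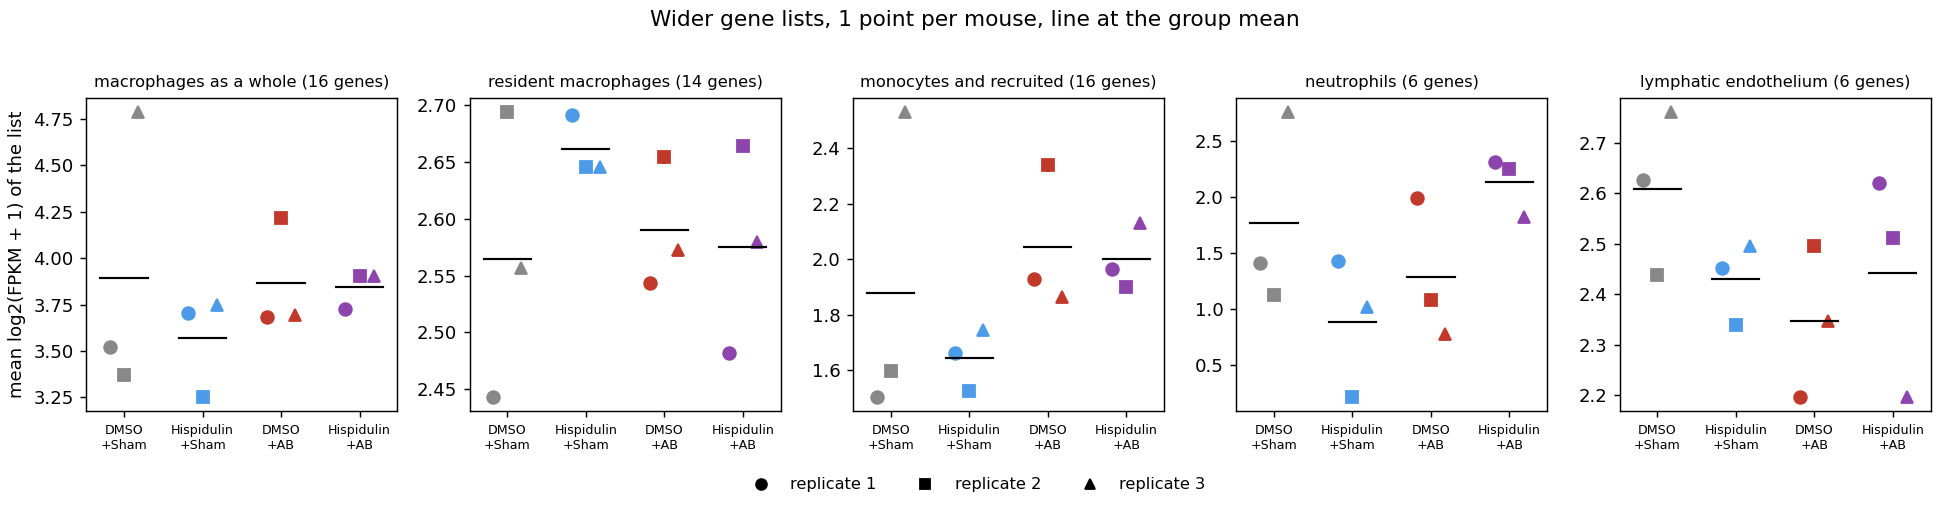
Mean log2(FPKM + 1) of 5 gene lists (vertical axes, which differ between panels and do not start at 0) in each mouse of the 4 groups, with a shape for each replicate number and a line at the group mean. DMSO+Sham mouse 3 is the highest point for macrophages as a whole (4.79), for monocytes and recruited macrophages (2.53) and for neutrophils (2.76).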

How the data were processed

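Left ventricular RNA of 12 mice (3 per group) was enriched for polyadenylated transcripts and read as single ends of 50 bases on a BGISEQ-500. The authors deposited 1 table of FPKM, scaled by transcript length and library size and rounded to 0.01. The submitters' processing notes list HISAT2 2.0.4, Bowtie2 2.2.5, RSEM 1.2.12 and DESeq2 1.4.5, and the genome build and annotation are not given in the sources used here. FPKM keep no depth: ratios between low values came within 0.1 of whole numbers in only 17.1% of cases (even spacing gives 20%), and reads could not be recovered.

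Groups and replicate numbers came from the sample titles, and 0 columns belonged to no sample. Symbols were found for 17947 of 18079 identifiers (99.3%) in RefSeq. Using R 4.3.3 and limma 3.58.1, 1 mean per group was fitted to log2(FPKM + 1) of the 12 libraries (8 error degrees of freedom, eBayes with a trend, two-sided) for the 11664 genes whose FPKM reached 1 in 3 or more libraries, with Benjamini-Hochberg adjustment over all of them and a threshold of 0.05. Fold changes on this scale understate the change of low genes. Exact permutation tests were run beside it. The procedure was tested on simulated data. Neither labels nor methods give a batch, and p-values measure the spread between single mice.

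The members, lists and rules were chosen with earlier results of these data known, so they are no independent evidence. Genes of the wider lists were named if they passed in any comparison (at most 5 per list and comparison) or were among the 2 of highest mean FPKM. The genes most like the markers were the 5 or 3 of highest r. Trem2 was named after its values were seen. The motif letters were not fixed beforehand: a longer and a shorter form of the PU.1 core were both searched after matches had been seen, and both are given.

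Replicate numbers were checked for pairing: deviations of same-numbered mice correlated by 0.147 to 0.228 in Hispidulin+AB against Hispidulin+Sham and by 0.126 to 0.330 in Hispidulin+Sham against DMSO+Sham, over 0.1 in every pair, and by -0.198 to -0.024 and -0.183 to 0.300 in DMSO+AB against DMSO+Sham and in Hispidulin+AB against DMSO+AB. The link comes from the data alone. Alternatives were 0.1 added, no filter, median-of-ratios scaling, the series of animal numbers as a covariate (the DMSO+Sham mouse outside both series has a level of its own and drops out), only the libraries compared, library weights, the replicate block, and each mouse left out.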

Additional observations from a re-analysis of the deposited data

How the results depend on the processing

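Of the 10 markers in 6 comparisons, 377 values kept their direction and their side of the threshold under the alternatives that keep every mouse, 21 changed sign and 2 passed, and with a mouse left out 417 kept both, 62 changed sign and 1 passed. In DMSO+AB vs DMSO+Sham the genes that passed numbered 383 without the filter, 142 with the series of animal numbers as a covariate, 11 with only the libraries compared and 1423 with library weights, where 1 marker (Spp1) passed. Between Hispidulin+AB and Hispidulin+Sham it was 2 without the filter, 2 with median-of-ratios scaling, 49 with only the libraries compared, 209 under library weights and 17 in the fit with a replicate block, which changed the call of 0 markers and, of the calls of Vcan, Tgfb1, Il34, Prox1, Thbs1 and Cbr2, ended that of Cbr2. Averaged over treatments it was 547 with the series covariate and 2535 with library weights, where 1 marker (Spp1) passed, and between Hispidulin+AB and DMSO+AB it was 2 without the filter. With 0.1 added, recruited minus resident was -2.10 in DMSO+Sham, -2.34 in Hispidulin+Sham, -0.73 ± 1.41 (SD, n = 3) in DMSO+AB and -1.65 in Hispidulin+AB. The causes were not tested.

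Signs turned as follows. With the series covariate, Cd68 was -0.027 and Mrc1 0.026 in DMSO+AB vs DMSO+Sham, and Lgals3 -0.014 in Hispidulin+AB vs Hispidulin+Sham, where median-of-ratios scaling put Lyve1 at 0.0015. With library weights, Adgre1 was 0.22 and Cd163 -0.16 in DMSO+AB vs DMSO+Sham, Lyve1 0.11 and Cd163 0.055 in Hispidulin+AB vs Hispidulin+Sham, and Adgre1 0.22 and Cd163 -0.051 averaged. They also put Cd68 at -0.074, Adgre1 at -0.042 and Ccr2 at -0.061 in Hispidulin+AB vs DMSO+AB, Cd68 at 0.082, Timd4 at 0.013, Cd163 at -0.075, Mrc1 at -0.19, Ccr2 at -0.098 and Lgals3 at 0.044 in Hispidulin+Sham vs DMSO+Sham, and the interactions of Cd68 at -0.16 and Cd163 at 0.21.

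With each mouse left out in turn, genes that passed ranged from 91 to 1053 (markers 0 to 1) in DMSO+AB vs DMSO+Sham, 0 to 3 in Hispidulin+AB vs Hispidulin+Sham, 376 to 1220 averaged, 0 to 20 in Hispidulin+AB vs DMSO+AB and 0 to 3 for the interaction. Values that changed sign ranged, in DMSO+AB vs DMSO+Sham, from -0.050 to 0.27 for Cd68, -0.0092 to 0.25 for Csf1r, -0.54 to 0.26 for Adgre1, -0.20 to 0.40 for Cd163, -0.26 to 0.32 for Mrc1 and -0.23 to 0.40 for Ccr2. In Hispidulin+AB vs Hispidulin+Sham they ranged from -0.21 to 0.063 for Csf1r, -0.25 to 0.11 for Timd4, -0.23 to 0.11 for Lyve1, -0.20 to 0.12 for Cd163 and -0.0083 to 0.14 for Lgals3. Averaged they ranged from -0.037 to 0.10 for Csf1r, -0.17 to 0.23 for Adgre1, -0.12 to 0.18 for Cd163 and -0.027 to 0.27 for Mrc1. In Hispidulin+AB vs DMSO+AB they ranged from -0.17 to 0.11 for Cd68, -0.085 to 0.11 for Csf1r, -0.036 to 0.35 for Adgre1, -0.042 to 0.39 for Cd163, -0.085 to 0.50 for Mrc1 and -1.19 to 0.023 for Spp1. In Hispidulin+Sham vs DMSO+Sham they ranged from -0.60 to 0.20 for Adgre1, -0.13 to 0.18 for Mrc1, -0.20 to 0.32 for Ccr2, -0.39 to 0.27 for Lgals3 and -0.38 to 0.10 for Spp1. Interactions ranged from -0.068 to 0.73 for Adgre1, -0.44 to 0.15 for Cd163, -0.12 to 0.47 for Mrc1, -0.057 to 0.60 for Ccr2 and -0.97 to 0.24 for Spp1.

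With 3 mice a group, depth unknown and Spp1, Ccr2 and Timd4 near 1 FPKM, differences within the printed intervals could not be resolved.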

Other observations

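Neutrophil markers stood out beside the macrophage genes in hispidulin-treated hearts. The list was singled out from the cell type lists after its values were seen. All 5 that were tested had values in Hispidulin+AB mice above those in Hispidulin+Sham mice, without overlap, against 9.14% of all genes, and 4 of the 5 had an unadjusted p under 0.05, against 7.26% of all genes. Of these genes Mmp8 passed the filter only through DMSO+Sham mouse 3 and Hispidulin+AB mice 1 and 2 (1.18, 1.28 and 1.09 FPKM). Hispidulin+Sham mouse 2 was the lowest of the 12 mice for all 5, tied with mouse 3 for Mmp8. The 6 neutrophil markers summed to 1.09 FPKM in that mouse and to 14.98 and 8.13 in Hispidulin+Sham mice 1 and 3. In vehicle-treated hearts all 5 lay lower after banding (median -0.52, and 0.0068 without DMSO+Sham mouse 3), and 0 passed. The interaction had an unadjusted p under 0.05 for all 5, against 2.48% of all genes, with a median of 2.05 (1.55 without DMSO+Sham mouse 3). The 5 genes mark 1 cell type in the same libraries, so their counts are not separate observations. Between Hispidulin+AB and DMSO+AB all 5 were above 0 (median 1.10), with 1 at an unadjusted p under 0.05 against 3.1% of all genes. None passed the adjusted threshold in limma in any of the 6 comparisons. S100a8, a calcium-binding protein that neutrophils carry in bulk, read 5.94, 0.23 and 2.26 FPKM in Hispidulin+Sham hearts and 15.18, 12.45 and 9.33 in Hispidulin+AB hearts (2.11 on the log2 scale, SE 0.68, adjusted p = 0.517). The control heart DMSO+Sham 3, at 21.66 FPKM, was higher than any of them. The 6 neutrophil markers summed to between 23.21 and 39.84 FPKM in Hispidulin+AB hearts and to between 5.41 and 27.99 in DMSO+AB hearts.

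Monocyte genes below the filter repeated the position of that control heart: Plac8 stood at 15.53 FPKM there and at most 1.17 in the other 11 mice, and Chil3 at 6.18 against at most 0.51.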
